A study of Mus musculus with 12 samples.

Results

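The 10 genes described here carry fatty acids from blood lipoproteins into cells and prepare them for use: Lpl, Angptl4 and Vldlr act on lipoproteins, Cd36, Slc27a1 and Slc27a4 on entry into the cell, Fabp4 on transport inside it, and Acsl1, Acsl4 and Acsl5 on activation. They were taken by symbol from the deposited gene counts, and all 10 were among the 28008 genes listed in both count tables. The title of the series gives the tissue as gonadal white adipose tissue, and the 12 RNA libraries came from mice of the inbred strain C57BL/6N. Each of the 4 groups had 3 libraries. Mice were 6 weeks old when they started regular chow or a high-fat diet, which they had for 18 weeks. The Chow group (libraries 8, 17 and 19) and the HFD group (4, 30 and 38) had no treatment stated. The HFD Vehicle group (23, 50 and 55) and the HFD PCN group (5, 11 and 27) were mice on the high-fat diet that were injected intraperitoneally once a day for 4 days, with 30% DMSO in corn oil or with 50 mg/kg PCN. PCN, pregnenolone 16alpha-carbonitrile, is a synthetic ligand of rodent PXR, the nuclear receptor encoded by Nr1i2. Whether each library came from its own animal is not said in words, and the p-values below then describe only how far these libraries spread.

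Fat cells obtain much of their fatty acid from triglyceride in circulating lipoproteins. Lipoprotein lipase, which fat cells make and which works on the capillary wall, frees the fatty acids, CD36 and the transport proteins help them across the plasma membrane, and acyl-CoA synthetases couple them to coenzyme A, which commits them to storage, oxidation or membrane lipids. Macrophages also make lipoprotein lipase, CD36 and FABP4, and capillary endothelium makes CD36 and FABP4. In mouse liver Cd36 is known as a gene that PXR can induce.

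Libraries held 11090117 to 27408092 counts, and the lowest count of any of the 10 genes in any library was 309, of Acsl4 in Chow 19. Depth went with the diet: Chow libraries held 11702225 to 13756819 counts and HFD libraries 16646176 to 27408092. HFD Vehicle 50 held the fewest, 11090117. The part of depth in the results below was not tested. The samples' source is labelled as duodenum, but the libraries had the markers of fat: Adipoq, the adiponectin gene of adipocytes, lay at 357 to 2107 CPM (counts scaled to a common library size, here by TMM over the 12 libraries), and the intestinal epithelial genes Epcam and Vil1 at no more than 0.293 and 2.70 CPM. Each library held RNA of the whole tissue, so fewer cells of a type and less RNA per cell cannot be told apart. The summed level of 12 adipocyte markers was 20806 to 23291 CPM in Chow and 5158 to 6360 CPM in HFD, and that of 12 macrophage markers 630 to 1506 CPM in Chow and 9508 to 10172 CPM in HFD. The 10 endothelial markers summed to 1489 to 1537 CPM in Chow and 518 to 537 CPM in HFD. The 8 fibroblast and progenitor markers summed to 1865 to 3427 CPM in Chow and 9401 to 10799 CPM in HFD. No marker of these 4 lists was at 0 in any group. The part of these shifts in the results below was not tested. Mitochondrial ribosomal RNA took 6.05% to 28.7% of the Chow counts and 7.49% of those of HFD Vehicle 50, and 1.40% to 2.54% in each of the remaining libraries.

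**Figure D1:**
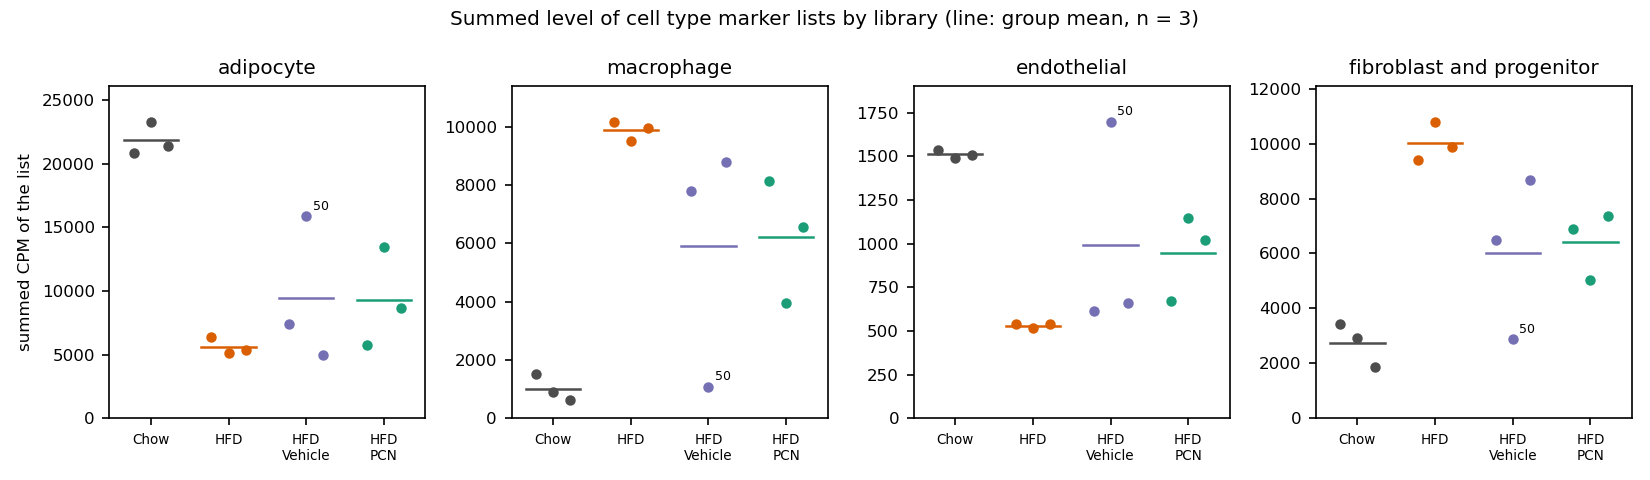
Summed CPM of the adipocyte, macrophage, endothelial and fibroblast marker lists (vertical axes, each from 0) in each library (points) by group, with the group mean as a line. Adipocyte and endothelial sums were higher in Chow than in HFD and macrophage sums lower, and HFD Vehicle 50, marked 50, had 15896 CPM of adipocyte and 1090 CPM of macrophage markers.

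HFD Vehicle 50 stood apart from its group. Its log2 levels correlated across 15093 genes, which are not independent replicates, at a mean r of 0.967 with Chow and only 0.862 with HFD. The other HFD Vehicle libraries, 23 and 55, had 0.893 and 0.871 with Chow and 0.989 and 0.985 with HFD. The log2 fold changes of the 10 genes between HFD PCN and HFD Vehicle, and the largest between HFD Vehicle and HFD, are given with and without it.

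The sequences in front of 5 of the genes are shown because these genes changed with the diet in opposite directions, Acsl4, Acsl5 and Cd36 upward and Acsl1 and Slc27a1 downward. Each is the 250 bases before a transcription start in RefSeq on GRCm38.p6, read 5′ to 3′ along the gene, and capitals mark matches to any of the motifs searched on both strands. RefSeq windows were found for 7 of the 10 genes, 11 windows in all.
Acsl1, chr8:46470787-46471036, plus strand: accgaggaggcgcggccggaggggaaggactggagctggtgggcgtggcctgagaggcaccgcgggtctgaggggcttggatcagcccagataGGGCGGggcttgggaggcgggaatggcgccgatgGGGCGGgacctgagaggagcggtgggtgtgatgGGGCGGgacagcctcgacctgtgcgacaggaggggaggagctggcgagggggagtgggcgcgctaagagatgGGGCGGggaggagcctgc
Acsl4, chrX:142390536-142390785, minus strand: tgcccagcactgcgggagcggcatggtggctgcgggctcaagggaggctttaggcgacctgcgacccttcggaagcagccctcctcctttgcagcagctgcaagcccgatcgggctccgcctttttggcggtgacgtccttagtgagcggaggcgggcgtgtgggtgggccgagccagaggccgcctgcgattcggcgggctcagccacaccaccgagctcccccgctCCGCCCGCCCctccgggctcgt
Acsl5, chr19:55253119-55253368, plus strand: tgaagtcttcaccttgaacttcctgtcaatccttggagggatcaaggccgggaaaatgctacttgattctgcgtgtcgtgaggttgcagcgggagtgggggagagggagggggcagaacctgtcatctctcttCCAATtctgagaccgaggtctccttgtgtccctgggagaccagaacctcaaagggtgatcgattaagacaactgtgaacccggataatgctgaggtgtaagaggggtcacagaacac
Cd36, chr5:17835897-17836146, minus strand: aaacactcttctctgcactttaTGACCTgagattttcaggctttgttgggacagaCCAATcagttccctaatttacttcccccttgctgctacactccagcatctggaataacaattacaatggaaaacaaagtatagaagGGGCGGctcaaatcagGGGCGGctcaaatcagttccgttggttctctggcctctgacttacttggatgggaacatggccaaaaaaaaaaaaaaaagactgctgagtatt
Slc27a1, chr8:71568621-71568870, plus strand: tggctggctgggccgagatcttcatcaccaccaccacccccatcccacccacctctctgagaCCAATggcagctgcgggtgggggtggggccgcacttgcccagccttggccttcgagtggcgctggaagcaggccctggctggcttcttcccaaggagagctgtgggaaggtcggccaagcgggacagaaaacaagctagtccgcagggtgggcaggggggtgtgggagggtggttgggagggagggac
The motifs were the direct repeat bound by PPAR with RXR (the PPAR response element), and the single nuclear receptor element, AGGTCA, which that repeat holds in 2 copies. The core promoter motifs searched were the TATA box, with letters TATAAA, and the CCAAT box, named by its letters. The GC box was searched as GGGCGG, and the E-box of helix-loop-helix factors as CACGTG. The AP-1 site was searched as TGANTCA, where N is any base, and the site of the macrophage factor PU.1 as GAGGAAGT. The Acsl1 window shown had 72.0% G and C and 4 GC boxes, and the Acsl4 window 70.8% and 2 GC boxes that overlap each other. The Acsl5 window had 52.8% G and C, no GC box and 1 CCAAT. Acsl4 and Acsl5, which both rose, therefore did not share a GC content or a GC box in these windows. The median of all 32851 windows was 52.4% G and C. The Cd36 window had 43.2% G and C and held 2 GC boxes, 1 CCAAT and 1 single AGGTCA element on the opposite strand. The Cd36 and Acsl5 windows lie inside the annotated spans of their genes (chr5:17781690-17888801 and chr19:55251938-55297720), before a start downstream of the first. The Slc27a1 window shown had 66.4% G and C and held 1 CCAAT. For Acsl1 and Slc27a1 the first window along the gene is shown, and their other windows differed from it. The second Acsl1 window (chr8:46490716-46490965) had 48.4% G and C, no GC box and 2 CCAAT. The second Slc27a1 window (chr8:71569347-71569596), which overlaps annotated exons, held 1 GC box, and the third (chr8:71570344-71570593) held 3 GC boxes, 1 CCAAT and an E-box, the only E-box in the 11 windows. E-boxes were in 6.02% of all windows. GC boxes were in 32.7% of all windows of this length, CCAAT in 33.8% and the single element in 14.0%. The full direct repeat was in 0.0335% of all windows and in none of the 11, and no match says only that these letters are not in this window. The letters of the TATA box, the AP-1 site and the PU.1 site were in none of the 11 either, and in 12.4%, 6.75% and 2.44% of all windows.

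The first comparison asked what the high-fat diet did to these genes. Acsl4, Acsl5 and Cd36 were higher in HFD than in Chow, and Acsl1, Slc27a1 and Fabp4 were lower. Lpl, Angptl4, Vldlr and Slc27a4 did not pass the test. So 6 of 10 passed, 3 in each direction, where 59.8% of the 16216 genes tested passed (29.8% higher, 30.0% lower). A gene was called at an adjusted p under 0.05 in edgeR's quasi-likelihood test, adjusted by Benjamini-Hochberg over all genes tested. The median log2 fold change was -0.15 over the 10 genes and -0.03 over all genes tested, and in 7 of the 10 all libraries of one group lay on one side of the other, against 68.5% of all genes. Levels below are on the 12-library scale, on which log2 ratios of HFD to Chow came out 0.11 to 0.13 higher than in the fit of the comparison. With single libraries left out, 4 to 7 of the 10 genes passed.

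**Figure D2:**
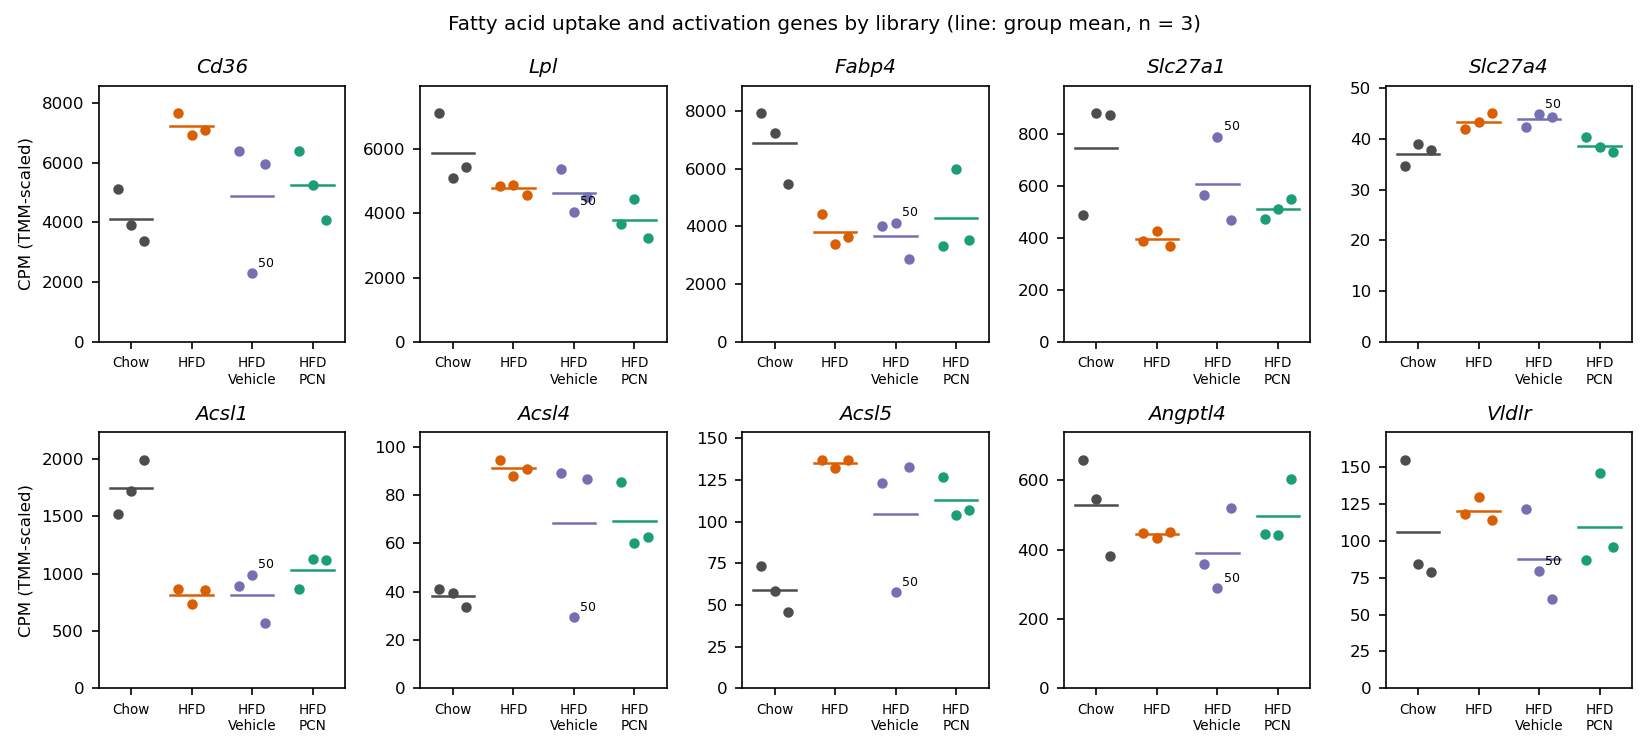
TMM-scaled CPM (vertical axes, each from 0) of the 10 genes in each of 12 libraries (points) by group, with the group mean as a line and HFD Vehicle 50 marked 50. Acsl4 and Acsl5 lay at 88 to 94.6 and 132 to 137 CPM in HFD, above all Chow libraries, while HFD Vehicle 50 lay at 29.6 and 57.8 CPM.

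Of the genes that act on lipoproteins, none passed the test with the diet. Lpl (ENSMUSG00000015568, GRCm38 chr8:68880491-68907448), the lipase itself, was at 7110, 5107 and 5435 CPM in Chow 8, 17 and 19 and at 4865, 4891 and 4583 CPM in HFD 4, 30 and 38. All HFD libraries lay below all Chow libraries, but the Chow libraries were widely spread and the log2 fold change of -0.42 (SE 0.22, 95% interval -0.94 to 0.10) did not pass (edgeR adjusted p = 0.14). DESeq2 called it (log2 fold change -0.35, adjusted p = 0.0429). It was not called by limma-voom (-0.41, adjusted p = 0.0502) or in the authors' deposited table (-0.35, adjusted p = 0.0595). Angptl4 (ENSMUSG00000002289, chr17:33773750-33781830), a secreted inhibitor of lipoprotein lipase, was at 659, 545 and 382 CPM in Chow and 448, 434 and 450 CPM in HFD. The HFD libraries lay inside the Chow range (log2 fold change -0.37, SE 0.19, edgeR adjusted p = 0.117). Without Chow 19, the lowest Chow library, its log2 fold change was -0.53 and edgeR called it (adjusted p = 0.0062). Vldlr (ENSMUSG00000024924, chr19:27216484-27254231), a receptor that binds triglyceride-rich lipoproteins, was at 155, 84.5 and 78.9 CPM in Chow and 118, 130 and 114 CPM in HFD. Chow 8 lay above and the other two Chow libraries below the HFD libraries (log2 fold change 0.07, SE 0.23, edgeR adjusted p = 0.812). Without Chow 8, Vldlr was higher in HFD (log2 fold change 0.43, edgeR adjusted p = 0.00449). For these 3 genes 1 Chow library or the choice of test thus set the call.

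Of the genes of entry into the cell, Cd36 rose and Slc27a1 fell. Cd36 (ENSMUSG00000002944), a membrane protein that binds fatty acids and oxidised lipoproteins, was at 5100, 3898 and 3362 CPM in Chow 8, 17 and 19 and at 7646, 6925 and 7107 CPM in HFD 4, 30 and 38. The groups did not overlap, and the log2 fold change was 0.69 (SE 0.24, edgeR adjusted p = 0.0339). The rise lost its call without Chow 17 (adjusted p = 0.0809), HFD 4 (0.0919), HFD 30 (0.0771) or HFD 38 (0.0913), with upper quartile scaling (0.0529) and in a fit of all 12 libraries (0.12), at log2 fold changes of 0.59 to 0.73. The authors' deposited table gave it 0.75 (adjusted p = 6.64e-05). In the same HFD libraries macrophage markers were higher and endothelial and adipocyte markers lower, at the sums given above. Fat cells, macrophages and endothelium all make CD36, and the part of these shifts in the rise was not tested.

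Slc27a1 (ENSMUSG00000031808, chr8:71568882-71587302), the transport protein FATP1, was at 488, 879 and 872 CPM in Chow and 389, 427 and 367 CPM in HFD. Chow 8 lay nearest to the HFD libraries, yet above all of them (log2 fold change -1.05, SE 0.24, edgeR adjusted p = 0.00618). Slc27a4 (ENSMUSG00000059316, chr2:29802634-29817522), the transport protein FATP4, was at 34.6, 38.9 and 37.7 CPM in Chow and 41.9, 43.3 and 45.0 CPM in HFD. Its log2 fold change of 0.10 (95% interval -0.14 to 0.34) did not pass (edgeR adjusted p = 0.418), and whether its libraries overlapped depended on the scale, as they did on that of the comparison. The ratio of Slc27a1 to Slc27a4 within a library, taken per kb of transcript and free of any scaling between libraries, was 20.5 to 33.5 in Chow and 11.8 to 14.3 in HFD.

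Fabp4 (ENSMUSG00000062515, chr3:10204088-10208576), the cytosolic fatty acid binding protein of adipocytes and macrophages, was at 7920, 7253 and 5482 CPM in Chow 8, 17 and 19 and at 4417, 3388 and 3629 CPM in HFD 4, 30 and 38. All HFD libraries lay below all Chow libraries (log2 fold change -0.97, SE 0.24, edgeR adjusted p = 0.00904). It narrowly lost its call without HFD 30 (adjusted p = 0.0531) or HFD 38 (0.0543). Within a library the ratio of Fabp4 to Cd36 per kb was 5.89 to 7.06 in Chow and 1.86 to 2.19 in HFD.

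The acyl-CoA synthetases changed in opposite directions, and their calls held under each setting and with each library left out. Acsl1 (ENSMUSG00000018796, chr8:46471037-46536051), the main long-chain acyl-CoA synthetase of fat cells, was at 1516, 1719 and 1991 CPM in Chow and 866, 731 and 854 CPM in HFD. It fell by 1.22 on the log2 scale (SE 0.18, edgeR adjusted p = 6.28e-04). Acsl4 (ENSMUSG00000031278, chrX:142317993-142390535), which prefers arachidonic acid and similar polyunsaturated fatty acids, was at 41.0, 39.5 and 33.7 CPM in Chow and 94.6, 88.0 and 90.9 CPM in HFD. Its log2 fold change was 1.14 (SE 0.10, edgeR adjusted p = 5.60e-05), the smallest adjusted p of the 10. Acsl5 (ENSMUSG00000024981, chr19:55251938-55297720), a long-chain synthetase found in mitochondria and endoplasmic reticulum, was at 73.4, 58.2 and 45.9 CPM in Chow and 137, 132 and 137 CPM in HFD. Its log2 fold change was 1.07 (SE 0.15, edgeR adjusted p = 4.76e-04). In each of the 3 genes the gap between the groups was wider than the spread within either. Other genes overlap 9.91% of the exon bases of Acsl1 (Gm45244) and 8.31% of those of Acsl5 (Zdhhc6), and the sources used here do not give whether reads were counted by strand.

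**Figure D3:**
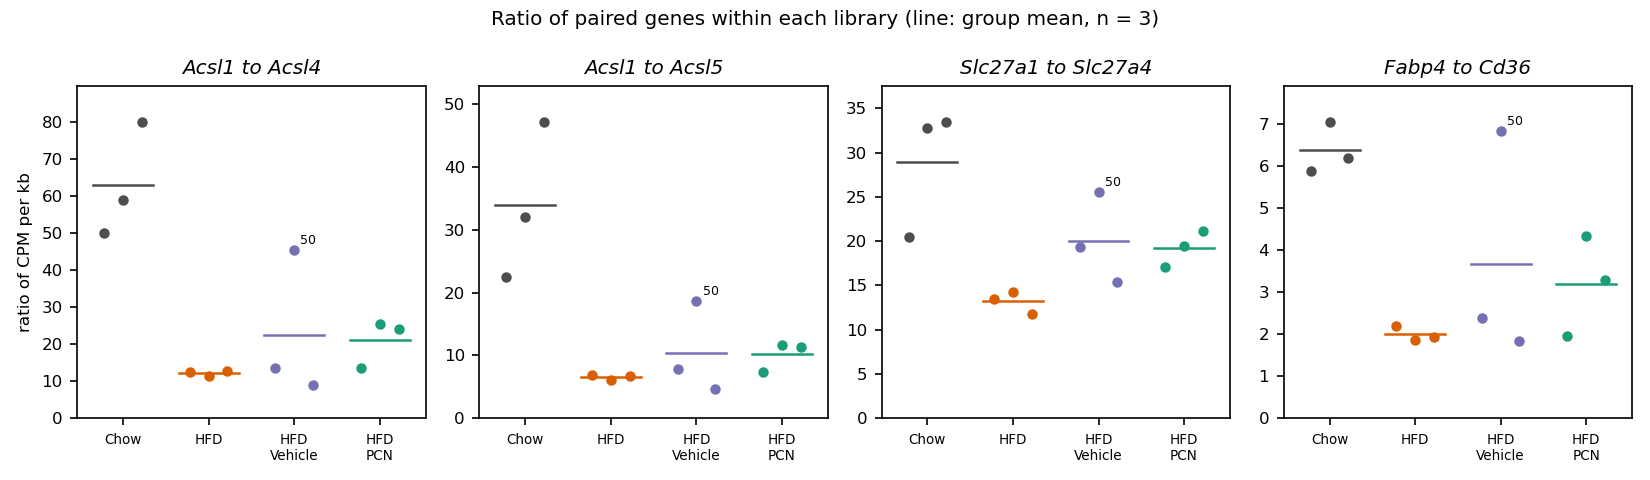
Ratio of CPM per kb of transcript for 4 pairs of genes (vertical axes, each from 0) within each library (points) by group, with the group mean as a line. Acsl1 to Acsl4 was 50.1 to 80.1 in Chow and 11.3 to 12.7 in HFD, and HFD Vehicle 50, marked 50, had 45.4.

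Within a library the ratio of Acsl1 to Acsl4 per kb was 50.1, 58.9 and 80.1 in Chow 8, 17 and 19 and 12.4, 11.3 and 12.7 in HFD 4, 30 and 38. With vehicle (libraries 23, 50 and 55) it was 13.5, 45.4 and 8.87, and with PCN (5, 11 and 27) it was 13.7, 25.4 and 24.2. HFD Vehicle 50 lay near the Chow libraries, the other HFD Vehicle libraries around the HFD range, and HFD PCN 11 and 27 between Chow and HFD. The ratio of Acsl1 to Acsl5 ranged over 22.5 to 47.2 in Chow and 6.02 to 6.89 in HFD. With vehicle it ranged over 4.65 to 18.7, and with PCN over 7.37 to 11.7. Acsl1 was the most abundant of the 3 synthetases per kb in each library. In HFD PCN the adipocyte sum was 5771, 13475 and 8622 CPM and the macrophage sum 8135, 3948 and 6569 CPM in libraries 5, 11 and 27. The libraries with the higher ratio, 11 and 27, thus had more of the adipocyte and less of the macrophage markers, and the part of this in the ratio was not tested.

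Set per kb of the longest principal transcript, the genes kept a wide order of levels. In Chow, Fabp4 led at 7684 ± 1406 CPM per kb (SD, n = 3), followed by Lpl (1430 ± 261) and Cd36 (1212 ± 262), whose libraries overlapped. Acsl1 (447 ± 61.2), Slc27a1 (267 ± 80.0) and Angptl4 (160 ± 42.1) came next, the last of these overlapping Slc27a1. Acsl5 (13.9 ± 3.24) overlapped Vldlr (13.3 ± 5.34), and Slc27a4 (9.14 ± 0.549) and Acsl4 (7.21 ± 0.734) were lowest and did not overlap. In HFD the order changed in places: Cd36 (2126 ± 110 CPM per kb) lay above Lpl (1162 ± 41.5), and Acsl4 (17.3 ± 0.625) above Vldlr (15.1 ± 1.05) and Slc27a4 (10.7 ± 0.377), in each case without overlap. Slc27a1 (141 ± 10.9) and Angptl4 (134 ± 2.72) overlapped. In HFD Vehicle only Fabp4, Lpl and Angptl4 lay above the next gene without overlap. In HFD PCN Slc27a1 overlapped Angptl4 and Vldlr overlapped Acsl4. The order depends on the length taken. All exons of Lpl hold 10.5 kb against 4.12 kb in its transcript, those of Fabp4 4.49 kb against 0.896 kb. For Cd36 the lengths are 3.59 kb and 3.4 kb. Per kb of all exons, mean Cd36 would lie above Lpl in Chow as well, and above Fabp4 in HFD.

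Around the 10 genes, 66 other genes of the same steps were listed by role, and 57 of them were tested with the diet. Of these 22 rose, 20 fell and 15 missed the threshold, and the median log2 fold change was 0.19. Over all genes tested, 29.8% were higher and 30.0% lower, and each role's count below stands beside these shares, from which nothing particular to a role was tested. Of 7 regulators 6 fell and 1 rose (median -1.05), where 30.0% of all genes fell. Ppara, Ppard and Rxra encode nuclear receptors that bind fatty acids or retinoids and act on lipid genes; Ppara fell from 13.9 ± 2.04 to 3.50 ± 0.642 CPM (log2 fold change -2.10), Ppard from 29.0 ± 7.82 to 9.59 ± 0.295 CPM (-1.72) and Rxra from 229 ± 15.0 to 121 ± 4.36 CPM (-1.05). Pparg, the receptor that drives many of these genes in fat cells and which was named after its values were seen, fell from 268 ± 71.2 to 111 ± 6.08 CPM (-1.41). Of 6 further surface receptors 4 rose and 1 fell. The scavenger receptor Msr1 rose from 11.9 ± 2.52 to 160 ± 5.65 CPM, and Olr1, a receptor of oxidised lipoprotein, from 0.184 ± 0.158 to 4.32 ± 0.720 CPM. Of these, Msr1 is known as a macrophage gene.

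Among 8 tested genes that handle lipoprotein lipase 3 fell and 1 rose. Gpihbp1, the endothelial protein that carries the lipase to the capillary lumen, fell from 137 ± 39.3 to 53.9 ± 6.78 CPM, a log2 fold change of -1.46 with SE 0.20 (edgeR adjusted p = 4.56e-04). Apoc1, an apolipoprotein, fell from 30.2 ± 13.9 to 10.1 ± 2.65 CPM and Lmf1, a factor needed for the lipase to fold, from 22.8 ± 2.77 to 18.6 ± 1.44 CPM. All 10 endothelial markers tested also fell, with a median log2 fold change of -1.55, and their part in the fall of Gpihbp1 was not tested. Of 9 partners of CD36 3 rose and 4 fell. Lyn, a kinase of blood cells that signals from CD36, rose from 56.4 ± 10.2 to 157 ± 5.58 CPM, Got2, an aminotransferase also described as a fatty acid binding protein of the plasma membrane, from 22.4 ± 5.97 to 56.3 ± 0.553 CPM, and Cavin1, a coat protein of caveolae, fell from 1406 ± 175 to 870 ± 20.2 CPM.

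Of the remaining transport proteins 2 were tested. Slc27a3 fell from 12.9 ± 2.39 to 4.32 ± 0.694 CPM and Slc27a6 rose from 0.343 ± 0.275 to 3.70 ± 0.338 CPM. Of the 2 other long-chain synthetases tested, Acsl3 rose from 15.4 ± 2.36 to 25.4 ± 2.10 CPM (log2 fold change 0.60, edgeR adjusted p = 0.00745). Of 6 other acyl-CoA synthetases 4 fell and 1 rose. Acss3, of short-chain acids, fell from 259 ± 20.8 to 47.2 ± 5.42 CPM (Ppfia2 overlaps 33.9% of its exon sequence, so this value is uncertain), Aacs, of acetoacetate, from 155 ± 38.8 to 50.4 ± 3.82 CPM and Acsf3 from 19.9 ± 1.31 to 11.3 ± 0.782 CPM.

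Of 8 tested binding proteins 5 rose and 1 fell. Fabp5, the fatty acid binding protein first described in skin, rose from 74.9 ± 19.8 to 388 ± 43.6 CPM and Fabp7, that of brain, from 0.518 ± 0.122 to 7.58 ± 1.54 CPM, while Fabp4 fell as given above. Acbd4, an acyl-CoA binding protein, fell from 99.2 ± 13.1 to 56.3 ± 3.75 CPM. Of 9 acyl-CoA thioesterases, which split acyl-CoA again, 5 rose and none fell, so that 5 of 9 passed in either direction where 59.8% of all genes did. Acot11 rose from 2.85 ± 0.820 to 19.7 ± 1.81 CPM (Fam151a overlaps 20.9% of its exon sequence, so this value is uncertain), Acot13 from 10.3 ± 2.72 to 20.2 ± 1.16 CPM and Acot7 from 22.6 ± 2.15 to 33.4 ± 1.16 CPM.

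**Figure D4:**
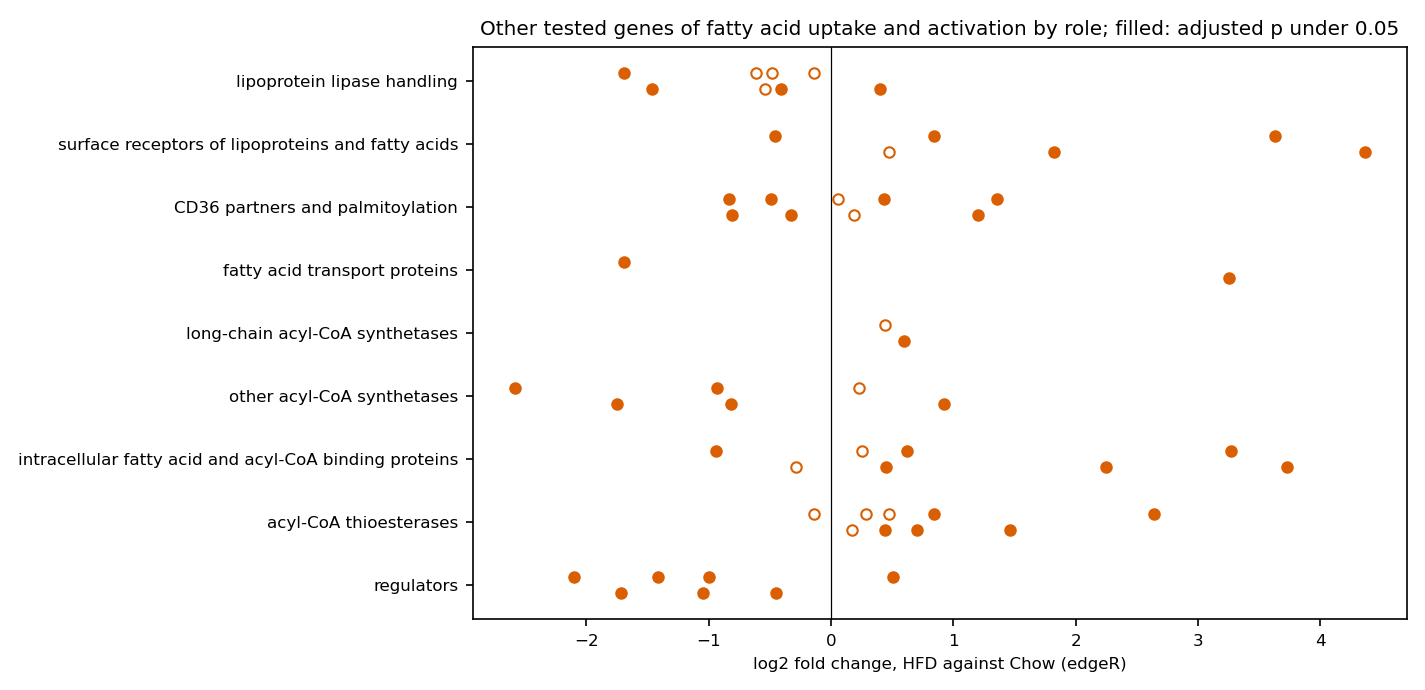
Log2 fold change of HFD against Chow (horizontal axis, edgeR) for the 57 other tested genes of fatty acid uptake and activation (points) by role, filled where the adjusted p was under 0.05. Regulators lie mostly below 0, with a median of -1.05, and the further surface receptors mostly above, with a median of 1.33.

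The second comparison asked what PCN did against its vehicle in mice on the high-fat diet. None of the 10 genes passed, and none of the 16563 genes tested did (0% called by edgeR). The 10 log2 fold changes lay between -0.31 (Lpl) and 0.35 (Angptl4), with a median of 0.11, and had an edgeR adjusted p of 0.99986 each. At an unadjusted p under 0.05 there were 281 of all genes and 0 of the 10. DESeq2 called 1 gene and limma-voom 0, and the authors' deposited table held 2, none of them among the 10. The 95% intervals ran from -0.52 to 0.13 for Slc27a4, the narrowest, to -1.06 to 1.27 for Cd36, the widest. Changes within these intervals remain possible with these libraries.

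Cd36 was at 6393, 5251 and 4065 CPM in HFD PCN 5, 11 and 27 and at 6377, 2290 and 5944 CPM in HFD Vehicle 23, 50 and 55. HFD Vehicle 50 was the lowest of all 12 libraries and the groups overlapped (log2 fold change 0.10, 95% interval -1.06 to 1.27). Without HFD Vehicle 50 the value was -0.22 (edgeR adjusted p = 0.88). Nr1i2, which encodes PXR, had 1, 1 and 0 counts with PCN and 5, 0 and 1 with vehicle. Acsl4 was at 85.3, 60.1 and 62.6 CPM with PCN and at 89.1, 29.6 and 86.9 CPM with vehicle, and its log2 fold change moved from 0.02 to -0.33 without HFD Vehicle 50 (adjusted p = 0.8). Acsl1 was at 862, 1124 and 1118 CPM with PCN and at 889, 991 and 569 CPM with vehicle (log2 fold change 0.32, and 0.52 without HFD Vehicle 50, adjusted p = 0.8). For Cd36, Acsl4 and Acsl5 HFD Vehicle 23 and 55 lay above all Chow libraries, and HFD Vehicle 50 within or below the Chow range.

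Slc27a4 was the 1 gene of the 10 whose libraries did not overlap, where 6.12% of all genes did not. It was at 40.3, 38.3 and 37.4 CPM with PCN and at 42.3, 44.9 and 44.2 CPM with vehicle (log2 fold change -0.20, 95% interval -0.52 to 0.13). Fabp4 was at 3318, 5998 and 3522 CPM with PCN and 4005, 4130 and 2864 CPM with vehicle, and Lpl at 3674, 4447 and 3226 against 5368, 4051 and 4519 CPM, both with overlap. Slc27a1 at 474, 513 and 548 CPM against 564, 790 and 468 CPM, Angptl4 at 446, 441 and 605 CPM against 359, 290 and 520 CPM, Vldlr at 87.1, 146 and 95.8 CPM against 122, 79.7 and 60.9 CPM and Acsl5 at 127, 104 and 107 CPM against 123, 57.8 and 133 CPM overlapped too. Without HFD Vehicle 50 the log2 fold change of Acsl5 turned from 0.11 to -0.17, and that of Slc27a1 went from -0.27 to 0.00. Angptl4 went from 0.35 to 0.19, Fabp4 from 0.20 to 0.33, Lpl from -0.31 to -0.37, Vldlr from 0.31 to 0.28 and Slc27a4 from -0.20 to -0.15, and none was called. Of the 66 other genes of these steps 56 were tested and none passed (median log2 fold change 0.01).

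**Figure D5:**
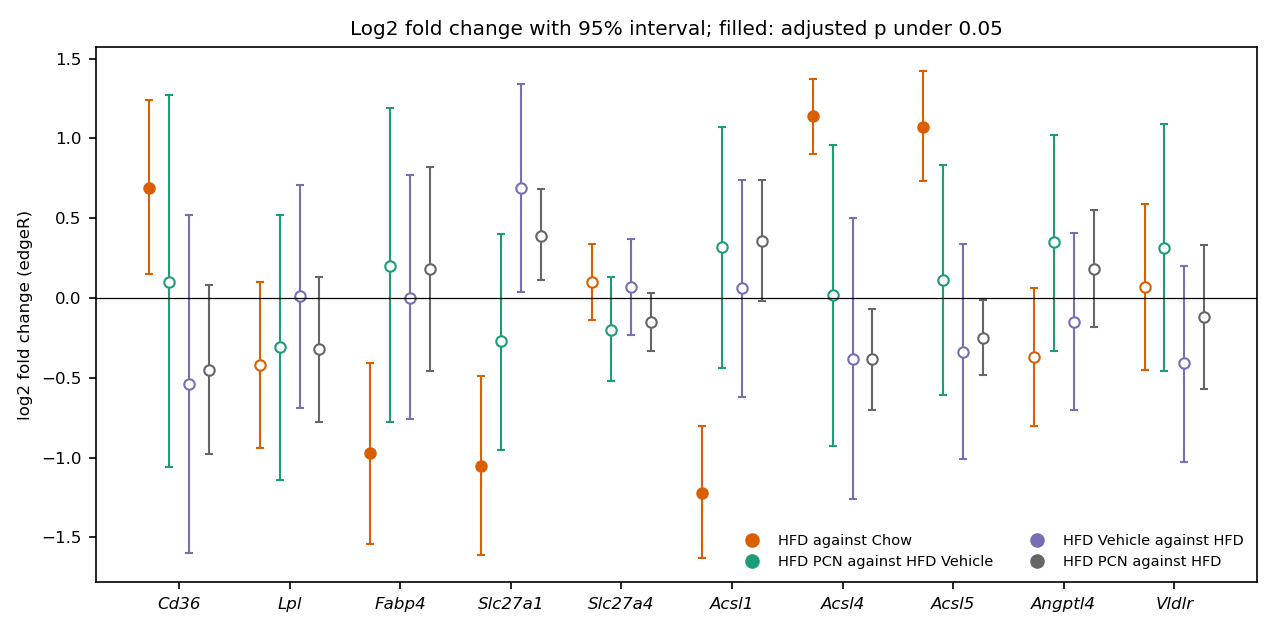
Log2 fold change (vertical axis, edgeR) with its 95% interval (bars) of each of the 10 genes in 4 comparisons (colours), filled where the adjusted p was under 0.05. The 6 called genes are filled for HFD against Chow and none for the other comparisons, of which 2 share the HFD libraries with it and with each other.

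The injected groups were also set against the HFD group, which had no injection stated. With vehicle, none of the 10 genes passed and none of 16781 genes did (0% called by edgeR, with 1639 genes at an unadjusted p under 0.05). DESeq2 called 91 genes and limma-voom 0. Slc27a1 had the largest difference of the 10, at 564, 790 and 468 CPM in HFD Vehicle 23, 50 and 55 against 389, 427 and 367 CPM in HFD. The log2 fold change was 0.69 (SE 0.27, edgeR adjusted p = 0.485). It was 0.39 without HFD Vehicle 50 (adjusted p = 0.142), a setting in which edgeR called 172 genes and none of the 10. Cd36 had a log2 fold change of -0.54 (edgeR adjusted p = 0.559), and of -0.23 without HFD Vehicle 50 (adjusted p = 0.358). The values of Acsl4 and Acsl5 went from -0.38 and -0.34 to -0.05 and -0.07 without it. Slc27a1 and Cd36 were the 2 genes without overlap, where 28.0% of all genes had none.

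With PCN against HFD, which shares the HFD libraries with the comparison before, edgeR called 732 of 16927 genes (4.32%, with 2.97% higher and 1.35% lower) and none of the 10. Slc27a1 was higher by 0.39 on the log2 scale (SE 0.12, 95% interval 0.11 to 0.68, edgeR adjusted p = 0.0934), and DESeq2 called it (adjusted p = 0.016). The libraries of 6 of the 10 did not overlap, where 37.4% of all genes did not: Slc27a1 was higher with PCN, and Cd36, Lpl, Slc27a4, Acsl4 and Acsl5 lower. The number of genes called changed with single libraries left out, in fits that had fewer samples. Without HFD PCN 5, edgeR called 5167 genes, where 16927 were tested with all libraries kept, and 5 of the 10. With so many genes called, the 5 are a description, and nothing particular to the 10 was tested. Slc27a1 and Acsl1 were higher (log2 fold changes 0.47 and 0.50, edgeR adjusted p = 0.0154 and 0.0188). Cd36, Acsl4 and Acsl5 were lower (-0.59, -0.53 and -0.32, edgeR adjusted p = 0.0374, 0.00341 and 0.0178). Without HFD 4, 30 or 38 edgeR called 0, 1 and 0 genes, without HFD PCN 27 it called 4, and in none of these any of the 10. In the same comparison the median log2 fold change was 0.96 over 11 tested adipocyte markers and -0.69 over 12 macrophage markers, and their part in these values was not tested.

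Of the other genes of these steps, 56 were tested with PCN against HFD. Of these 1 rose and 3 fell, where 2.97% of all genes were higher and 1.35% lower. These calls did not all hold with single libraries left out, in fits that had fewer samples. As given above, edgeR called no gene at all without HFD 4 or without HFD 38. Gpihbp1 rose from 53.9 ± 6.78 to 99.9 ± 27.3 CPM (log2 fold change 0.90, edgeR adjusted p = 0.0467). Lrp8, a lipoprotein receptor of the same family as Vldlr, fell from 5.96 ± 0.385 to 3.04 ± 0.437 CPM (edgeR adjusted p = 0.0311). Slc27a6 fell from 3.70 ± 0.338 to 1.80 ± 0.338 CPM (edgeR adjusted p = 0.0416). Acss2, which activates acetate, fell from 58.9 ± 2.88 to 26.5 ± 9.86 CPM (edgeR adjusted p = 0.0451). Endothelial markers, of the cell type of Gpihbp1, had a median log2 fold change of 0.78 there, with 3 of 10 higher and 7 not called. Their part in the rise of Gpihbp1 was not tested.

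Across the 12 libraries, which fall into 4 groups and differ in depth, the log2 levels of the 10 genes fell into sets. Acsl4 and Acsl5 ran together (Pearson r = 0.97), as did Cd36 with Acsl4 (0.91) and with Acsl5 (0.86), and Fabp4 ran with Acsl1 (0.83). Slc27a1 ran opposite to Acsl5 (-0.89) and Cd36 (-0.86). These are descriptions over 12 libraries. They hold the shift between Chow and HFD, with which 59.8% of the genes tested passed. The part of that shift in r was not tested.

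Among 9505 genes with a mean of at least 10 CPM, predicted genes left out, the 3 most like each gene were found by Pearson's r over the 12 libraries. The same shift between groups enters these values. For Cd36 they were Cetn3 (0.994), Dynlt3 (0.993) and Sar1b (0.988), for Acsl4 Jpt1, Atp6ap2 (0.994) and Gng2 (0.993), and for Acsl5 the ribosomal protein genes Rps4x (0.999), Rpl36a (0.999) and Rps16 (0.997). For Fabp4 they were Hibadh (0.978), Rad51d and Mgst1 (0.972), for Acsl1 Mterf3 (0.974), Acvr1c (0.967) and Zfp449 (0.959), and for Slc27a1 Nup188 (0.968), Ncapd3 (0.965) and Pkn3 (0.958). The likeness was lower for Slc27a4 (Agap3, 0.94, Trip11, 0.938, and Macf1, 0.904), Lpl (Poldip2, 0.918, Nfs1, 0.911, and Aldh1a7, 0.889), Angptl4 (Lmo4, 0.926, Ibtk, 0.865, and Nupr1, 0.862) and Vldlr (Nudt7, 0.886, Cyp2j6, 0.885, and Mmd, 0.877). Without HFD Vehicle 50 none of the 3 genes named for Acsl4 and none of those for Slc27a4 were again among the 3 most alike.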

How the data were processed

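RNA sequencing gene counts of 12 libraries in 4 groups of 3 were used. The authors deposited 2 tables of whole-number counts of reads per gene. The table of the Chow and HFD libraries has 30327 genes, that of the injected groups 30453, and 28008 are in both. The tools named, per the submitters' processing notes, are DESeq2, HTSeq and HISAT2, without versions, and the build is GRCm38 (mm10). The log2 fold changes and adjusted p-values in the deposited tables are the authors' own.

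The test here was edgeR's quasi-likelihood test (version 4.0.16, R 4.3.3; TMM scaling, default expression filter, Benjamini-Hochberg adjustment, threshold 0.05), each comparison on its own 6 libraries. All 10 genes passed the filter in each comparison. The 2 comparisons with HFD that join both tables used the genes in both. The standard error is the fitted log2 fold change over the square root of F. Levels are CPM with TMM over 12 libraries and the genes of both tables. Lengths, starts and overlaps come from GENCODE M21 (GRCm38). The longest principal transcript gives the length. Promoter windows and motifs come from RefSeq. The procedure was tested on simulated data.

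Depth was 11090117 to 27408092 counts per library. Replicate pairs differed by a chi-square per degree of freedom of 6.91 to 236 (over genes with at least 10 counts in the pair), so no pair was counted as 1 sample. Alternatives were DESeq2 1.42.0, limma-voom (limma 3.58.1), other scalings and filters, no mitochondrially encoded genes, all 12 libraries in 1 fit, and each library left out. The 10 genes, the lists of roles and markers and the tests were chosen with earlier results of these data known. Named were the 10 genes, of each role up to 3 other passing genes with the smallest p with the diet and any passing in another comparison, the marker genes given, and the 3 genes most like each of the 10. Of these, 1 gene that this rule names is not reported here.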

Additional observations from a re-analysis of the deposited data

How the results depend on the processing

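No paired analysis was possible because each library has its own number and no number is shared between groups. With the diet, the number of the 10 genes called stayed within 1.5 times under all settings, and 139 of 150 alternative values of the 10 genes kept their side of the threshold, 8 lost the call (Cd36 in 6 and Fabp4 in 2) and 3 gained it (Lpl, Angptl4 and Vldlr). No called value changed sign, but the log2 fold change of Vldlr, which was not called, was -0.03 with upper quartile scaling, -0.06 without Chow 17 and -0.08 without Chow 19. Genes called with the diet ranged from 7953 to 10889 with single libraries left out, and the 10 genes called from 4 to 7. With PCN against vehicle DESeq2 called 1 gene and 2 were called in the authors' deposited table, and none of the 10 genes was called under any setting, while Cd36, Fabp4, Acsl4 and Acsl5 changed sign without 1 or another library. With vehicle against HFD DESeq2 called 91 genes, and with single libraries left out edgeR called 0 to 172. With PCN against HFD DESeq2 called 2410 genes and 1 of the 10, edgeR without a filter 1296 genes and a fit of all 12 libraries 0. With single libraries left out it called 0 to 5167 genes and 0 to 5 of the 10. Fits that leave out a library have fewer samples, and the cause of the other differences was not tested. Group levels moved by more than 1 SD in 13 of 80 values with plain totals or without mitochondrially encoded genes, and ratios within a library did not move with either. The ratios were planned per kb of exon, and the length used is that of the longest principal transcript. Using the length of all exons of a gene, a setting chosen after seeing the data, multiplies each ratio by a constant. It also changes the order of levels, as given above.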
